A study of Sus scrofa with 15 samples.

Results

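Transcripts of T cells were followed in the penile corpus cavernosum of the pig (Sus scrofa), the spongy erectile tissue of the penis, in normal tissue and in 4 other groups of samples. The set was chosen by name, with earlier results of these data known. It held 10 genes, CD2, CD3D, CD3E, CD3G, CD4, CD8A, LCK, ZAP70, IL7R and GZMA. Of these, 9 had a row among the 26654 genes of the deposited tables, and ZAP70, a kinase that docks on the activated T cell receptor, is not analysed here. The labels name 5 groups of 3 polyA libraries each. Normal, defect and implantation A were meant to be compared with one another, and implantation B with ECs+ implantation. The labels give no strain, age, cell source or sampling time, do not spell out ECs and do not say how implantation A and B differ. They also leave unsaid whether replicate libraries came from different animals, so p-values measure the variation among the libraries at hand, which may be technical. For ECs+ implantation the group was taken from the sample titles, because the description of all 3 also carries the name of normal 3.

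A T cell recognises its target with a receptor that cannot signal by itself. The CD3 chains encoded by CD3D, CD3E and CD3G carry the signal into the cell, the co-receptors CD4 and CD8 bind MHC class II and class I molecules and bring the kinase LCK to the receptor, and CD2 is an adhesion molecule of T and natural killer (NK) cells. IL7R encodes the alpha chain of the interleukin-7 receptor, a survival receptor of resting and memory T cells, and GZMA encodes granzyme A, a protease of the killing granules. Not every marker is private to T cells: NK cells of the pig also carry CD2 and CD8A, and in humans monocytes and macrophages carry CD4. In bulk tissue, fewer cells of a type and less RNA per cell cannot be told apart.

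The 3 CD3 chain genes are neighbours on chromosome 9 of the Sscrofa11.1 assembly in the RefSeq annotation, with CD3E from 45619730 to 45633972, CD3D from 45640475 to 45644153 and CD3G from 45645243 to 45656779. CD8A lies on chromosome 3 from 57999228 to 58029768, CD2 on chromosome 4 from 103963802 to 103976971, CD4 on chromosome 5 from 63892129 to 63918547 and LCK on chromosome 6 from 88719886 to 88745922. IL7R, on chromosome 16 from 21300141 to 21330156, overlaps the non-coding gene LOC106508147, and no source used here tells whether counting used the strand, so its counts are uncertain. GZMA is the symbol of 2 RefSeq genes on chromosome 16, from 34262495 to 34272084 and from 34282160 to 34290422, but had 1 row in the tables, so it is uncertain which copy its counts describe.

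Of the 15 libraries, 13 held between 17234169 and 19644793 counts, whereas defect 1 held 207769 and defect 2 held 250178. Smooth muscle and endothelial markers, which define this tissue, were present in every library: the 6 smooth muscle genes summed to between 2466 and 5700 CPM (counts scaled to library size) and the 7 endothelial genes to between 1485 and 4042 CPM. T cell transcripts were rare by comparison. The 9 genes together gave 209 to 480 counts in each of the 13 deep libraries, or 11.8 to 27.1 CPM.

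The shallow defect libraries could not show single T cell genes. Each held 6 counts of the 9 genes in all. Defect 1 had 3 counts of CD8A, 2 of CD2 and 1 of LCK, and defect 2 had 2 of CD4, 2 of IL7R, 1 of CD8A and 1 of LCK. CD3D, CD3E, CD3G and GZMA had no count in either, where a count of 0 in the 2 pooled libraries allows up to 6.55 CPM, above the level of each of them in defect 3. Every gene except CD8A was below 3 counts in both. Summed over the 9 genes the pooled shallow libraries stood at 26.2 CPM, with an exact 95% Poisson interval of 13.5 to 45.8 that covers counting error only, and defect 3 at 27.1 CPM, so the totals did not differ beyond counting error. Gene-level statements on the defect group therefore rest on defect 3, a single library.

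Levels can be set against each other between genes only in TPM (transcript levels scaled for length). In normal tissue CD2 and CD8A were the most abundant, at 5.10 ± 0.46 and 4.65 ± 0.60 TPM (SD, n = 3), followed by CD3E at 3.84 ± 0.38, LCK at 2.58 ± 0.49 and CD3D at 2.41 ± 1.58. GZMA stood at 2.0 ± 0.93 TPM and CD3G at 1.59 ± 0.21. CD4 at 0.654 ± 0.077 and IL7R at 0.182 ± 0.104 TPM were the lowest. In defect 3 this order was different, with CD2 at 8.01 TPM, CD3E at 7.63, CD3D at 5.65, CD4 at 3.92, CD8A at 3.64, CD3G at 3.42, LCK and IL7R at 1.73 and 1.66, and GZMA at 0.303.

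**Figure D1:**
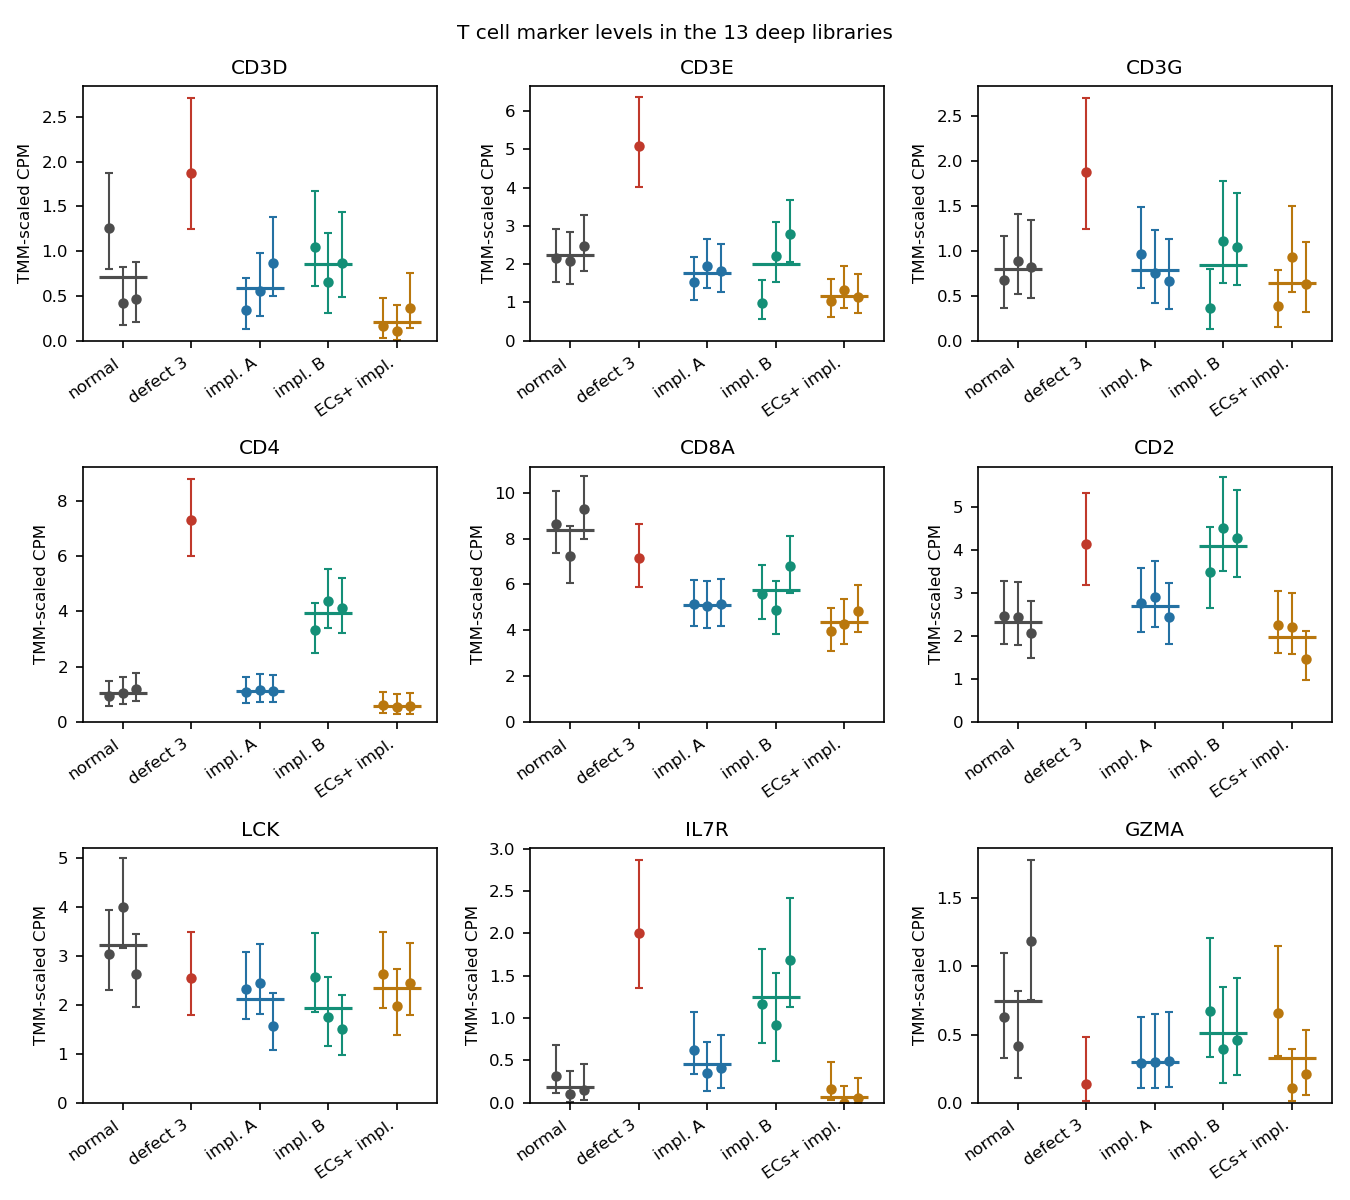
Level of each of the 9 T cell genes in the 13 deep libraries, as CPM after TMM scaling (y axis) by group (x axis). Points are libraries, vertical bars exact 95% Poisson intervals of their counts, and horizontal bars group means. Defect 3 stands above every normal library for 6 genes, and CD4 and IL7R are high in defect 3 and implantation B.

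Between the groups the genes did not move as 1 block. On the scale of CPM after TMM scaling, CD4 ran from 7.29 in defect 3 through 3.93 ± 0.55 in implantation B, 1.11 ± 0.04 in implantation A and 1.06 ± 0.12 in normal tissue to 0.575 ± 0.026 in ECs+ implantation (SD, n = 3 where given), and of the neighbours in this order only implantation A and normal overlapped. IL7R followed the same order, from 2.01 in defect 3 to 1.25 ± 0.39, 0.462 ± 0.147, 0.191 ± 0.110 and 0.0721 ± 0.0839, with an overlap between normal and ECs+ implantation alone. CD2 also had this order, but its range was narrower, from 4.15 CPM in defect 3 to 1.97 ± 0.44 in ECs+ implantation. CD8A had another order. Normal tissue was highest at 8.39 ± 1.05 CPM, ahead of defect 3 at 7.16, implantation B at 5.75 ± 0.96, implantation A at 5.11 ± 0.05 and ECs+ implantation at 4.36 ± 0.46, and the libraries of implantation A and B overlapped. LCK too was highest in normal tissue, at 3.23 ± 0.71 CPM, and its other 4 groups, from 2.54 in defect 3 down to 1.95 ± 0.56 in implantation B, overlapped each with the next. For the CD3 chains defect 3 stood above all other deep libraries, at 5.09 CPM for CD3E and 1.87 for both CD3D and CD3G, and below it the groups overlapped in most neighbouring pairs. GZMA was low in defect 3, at 0.134 CPM or 2 counts, where of the deep libraries ECs+ implantation 2 alone was lower at 0.11 CPM, and it was highest in normal tissue at 0.744 ± 0.397.

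Defect was compared with normal tissue first. The CD3 chains, CD4, CD2 and IL7R were higher in the defect group, with CD4 6.66-fold and IL7R 10.7-fold higher, while CD8A and LCK did not pass the test. Normal libraries held 18, 20 and 23 counts of CD4 and defect 3 held 109. For IL7R the counts were 6, 2 and 3 against 30. Every normal library thus lay below defect 3 for both genes by a wide margin, on few counts.

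The fitted rise was 2.73 ± 0.29 on the log2 scale for CD4 (SE, adjusted p = 2.4e-14) and 3.42 ± 0.55 for IL7R (adjusted p = 4.9e-09). CD3E, with 41, 40 and 48 counts in normal tissue and 76 in defect 3, rose by 1.11 ± 0.27 (adjusted p = 0.000255). CD3D and CD3G rose by 1.32 ± 0.44 and 1.16 ± 0.40, with 28 counts each in defect 3 against 24, 8 and 9 and against 13, 17 and 16 in the normal libraries. Without defect 3 the values were 2.02 for CD4 and 4.44 for IL7R, neither of which passed, and without normal 1 that of CD3D was 2.02. CD2, with 62 counts against 47, 47 and 40, rose by 0.84 ± 0.27 (adjusted p = 0.00628). Defect 3 lay above all 3 normal libraries for each of these 6 genes.

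CD8A held 165, 139 and 180 counts in normal tissue and 107 in defect 3. Its log2 difference of -0.22 had a 95% interval of -0.61 to 0.18. LCK, with 58, 77 and 51 against 38 counts, differed by -0.30, with an interval of -0.90 to 0.30. Defect 3 lay just under the lowest normal library for both. GZMA, below the filter on low counts in this fit and so not tested, had 12, 8 and 23 counts in normal tissue, 2 in defect 3 and 0 in the shallow libraries.

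Of the 8 genes tested, 6 were higher in defect, where 32% of all 17855 genes tested were, and 0 were lower, where 31.9% were. No gene of the set was lower at an unadjusted p under 0.05 in edgeR's test, nor with DESeq2 or limma-voom. Their median log2 difference was 1.13 against -0.05 over all genes. This count rests on defect 3: without that library 0 of the 6 passed, and the same 6 passed when defect 3 was kept alone, where GZMA could be tested and was lower, under the assumption that a lone library varies as much as the replicates elsewhere. DESeq2 and limma-voom on the 3 unequal libraries called 2 of them, CD4 and IL7R.

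**Figure D2:**
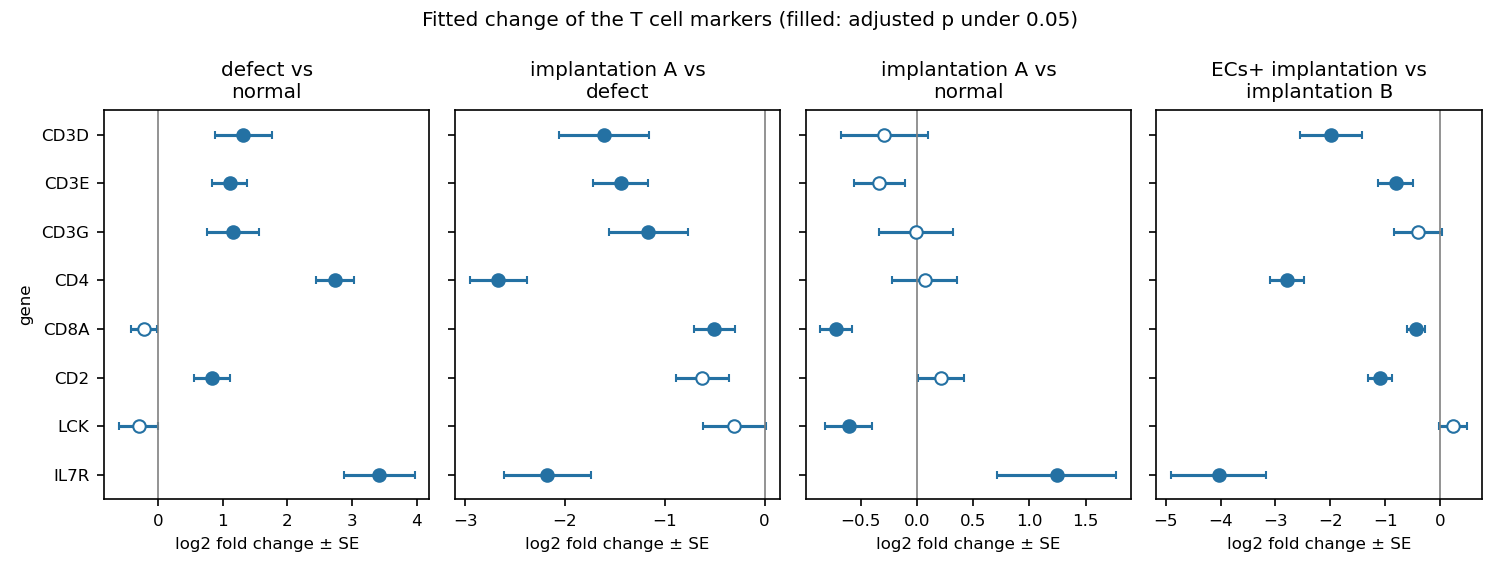
Fitted log2 fold change (x axis, bars are SE) of the 8 T cell genes tested (y axis) in the 4 comparisons the design sets, filled where the adjusted p was under 0.05. In defect against normal 6 filled points lie right of 0, and in ECs+ implantation against implantation B 6 lie left of it.

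Implantation A was lower than defect for most of these genes, and it differed from normal tissue for CD8A, LCK and IL7R. CD4, CD3D, CD3E, CD3G, IL7R and CD8A fell relative to defect, with CD4 6.35-fold and IL7R 4.52-fold lower, and CD2 and LCK did not pass. The counts of CD4 in the 3 implantation A libraries were 22, 23 and 22, next to 109 in defect 3. Its log2 change was -2.67 ± 0.29 (SE, adjusted p = 1.2e-13), and those of CD3D, CD3E and CD3G were -1.61 ± 0.45, -1.44 ± 0.28 and -1.16 ± 0.40. IL7R had 13, 7 and 8 counts in implantation A and changed by -2.18 ± 0.43 (adjusted p = 1.8e-05). Without defect 3 the values were -1.94 for CD4 and -3.19 for IL7R, and neither passed. All 3 implantation A libraries were under defect 3 for each of these 5 genes.

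CD8A, with 106, 101 and 101 counts, fell by 0.50 on the log2 scale relative to defect (adjusted p = 0.0439) and lost its call in most alternatives, leaving out defect 1, defect 3 or any implantation A library included. CD2 with 57, 58 and 48 counts gave -0.62 with a 95% interval of -1.15 to -0.10 (adjusted p = 0.0557). LCK with 48, 49 and 31 counts gave -0.30 with an interval of -0.92 to 0.31. In this comparison 6 of 8 genes were lower, where 21.4% of all genes were, and 0 were higher, where 20.4% were. DESeq2 and limma-voom called only 2 lower each. The 0 held at an unadjusted p under 0.05 and with both of these tools. The median over the 8 was -1.30 against 0.02 over all genes, and without defect 3 again 0 passed.

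Against normal tissue, implantation A differed in the co-receptor CD8A and the kinase LCK, which fell, and in IL7R, which rose. CD8A was lower in all 3 implantation A libraries than in any normal one, and its log2 change was -0.72 ± 0.14 (SE, adjusted p = 5.5e-06). LCK changed by -0.61 ± 0.21 (adjusted p = 0.00791), a call that was lost without implantation A 3 and without normal 2. The rise of IL7R by 1.24 ± 0.53 (adjusted p = 0.0232) came from 13, 7 and 8 counts against 6, 2 and 3, and was lost without implantation A 1, normal 2 or normal 3.

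For CD4 the difference from normal was 0.07 with an interval of -0.50 to 0.63. The intervals of the CD3 chains were -1.05 to 0.47 for CD3D, -0.78 to 0.11 for CD3E and -0.65 to 0.64 for CD3G, and that of CD2 was -0.19 to 0.62. So 1 of 8 genes was higher, where 32.2% of all genes were, and 2 were lower, where 32.3% were, both below the share over all genes. Their median was -0.15 against -0.02 over all genes. In the 2 comparisons with defect the same defect libraries serve, and in the 2 with normal the same normal libraries.

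ECs+ implantation was lower than implantation B for CD4, IL7R, CD2, CD3D, CD3E and CD8A, and CD3G and LCK did not pass. The 3 implantation B libraries held 54, 67 and 71 counts of CD4, and the 3 of ECs+ implantation held 11, 10 and 11. The groups were far apart, and CD4 was 6.92-fold lower with ECs+, a log2 change of -2.79 ± 0.32 (SE, adjusted p = 1.7e-12). For IL7R the counts were 19, 14 and 29 against 3, 0 and 1, which puts ECs+ implantation at the floor of detection. The fitted change of -4.04 ± 0.86 (adjusted p = 5.5e-08) is imprecise for that reason, and it was -5.25 without ECs+ implantation 1.

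CD2, the adhesion molecule, had 57, 69 and 74 counts in implantation B and 41, 40 and 28 in ECs+ implantation. It changed by -1.09 ± 0.22 (adjusted p = 1.4e-05), with no overlap. Among the CD3 chains, CD3D fell by 1.99 on the log2 scale, from 17, 10 and 15 counts to 3, 2 and 7 (adjusted p = 0.000575), and the change was -2.61 without ECs+ implantation 3. CD3E fell by 0.81 (adjusted p = 0.0199), from 16, 34 and 48 counts to 19, 24 and 22. Its groups overlapped, because implantation B 1 lay under all 3 ECs+ libraries, and the call was lost in 7 of 15 alternatives: DESeq2, limma-voom, library size as the only scaling, unfiltered TPM, and without ECs+ implantation 1, implantation B 2 or implantation B 3. CD3G, the third chain, had 6, 17 and 18 counts in implantation B and 7, 17 and 12 in ECs+ implantation, and its interval ran from -1.26 to 0.45.

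CD8A fell least of the genes called, by 0.44 (adjusted p = 0.0143), from 91, 75 and 117 counts to 72, 78 and 93. After TMM scaling its groups did not overlap, but the call was lost with library size as the only scaling and without ECs+ implantation 1 or implantation B 3. LCK had 42, 27 and 26 counts in implantation B and 48, 36 and 47 in ECs+ implantation, and a log2 difference of 0.24 with an interval of -0.26 to 0.74. GZMA, not tested in this fit, had 11, 6 and 8 counts against 12, 2 and 4.

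In this comparison 6 of 8 genes were lower, where 38.1% of all 17204 genes tested were, and 0 were higher, where 37.8% were. DESeq2 and limma-voom called 5 lower each, and library size as the only scaling left 4. At an unadjusted p under 0.05 the 0 was the same, as it was with DESeq2 and limma-voom. The median over the 8 genes was -0.95 against 0.02 over all genes. CD4, CD2, CD3D and IL7R passed in each of the 15 alternatives run for this comparison.

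Placing the implantation groups beside the other groups used 1 fit over all 15 libraries, in which GZMA was tested too. Implantation B was higher than implantation A for CD4, IL7R and CD2, by 1.81 ± 0.25, 1.43 ± 0.41 and 0.60 ± 0.20 on the log2 scale (SE), while none of the CD3 chains passed. The intervals were -0.26 to 1.37 for CD3D, -0.34 to 0.69 for CD3E and -0.67 to 0.82 for CD3G. So 3 of 9 genes were higher, near the 27.2% of all 18316 genes tested, and 0 were lower, where 23.6% were. DESeq2 called 1 gene higher and limma-voom 3. Of 18 alternatives, the call was lost in 5 for CD2, 4 for IL7R and 3 for CD4. The 0 stood also at an unadjusted p under 0.05 and with DESeq2 and limma-voom. Their median was 0.55 against 0.00 over all genes.

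Against normal tissue implantation B was higher for the same 3 genes, CD4 by 1.89 ± 0.25, IL7R by 2.68 ± 0.54 and CD2 by 0.81 ± 0.20, and lower for CD8A and LCK. CD8A changed by -0.54 ± 0.14 (adjusted p = 0.000579) and LCK by -0.73 ± 0.23 (adjusted p = 0.00358), each with all 3 implantation B libraries under all 3 normal ones. Of the 9 genes, 3 were higher, where 37.1% of all genes were, and 2 lower, where 36.7% were. The median of 0.07 lay near the -0.03 over all genes.

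ECs+ implantation was lower than normal tissue for 5 of 9 genes, where 35.6% of all genes were lower, and higher for 0, where 35.7% were. The 0 was the same at an unadjusted p under 0.05 and with DESeq2 and limma-voom. CD8A changed by -0.94 ± 0.15 (SE, adjusted p = 3.6e-08), CD3E by -0.93 ± 0.28 (adjusted p = 0.00186), CD3D by -1.69 ± 0.55 (adjusted p = 0.00246) and CD4 by -0.87 ± 0.34 (adjusted p = 0.0161). GZMA, from 12, 8 and 23 to 12, 2 and 4 counts, changed by -1.18 ± 0.49 (adjusted p = 0.0199), a call lost without ECs+ implantation 2 or 3 or normal 3, with a value of -2.15 without ECs+ implantation 1. The call of CD3D was lost without normal 1, at -0.99, and its value was -2.31 without ECs+ implantation 3. LCK, at -0.45 with an interval of -0.88 to -0.02, missed the threshold at an adjusted p of 0.0569 and passed without ECs+ implantation 1 or normal 3. IL7R differed by -1.32 with an interval of -3.11 to 0.48 and passed without ECs+ implantation 1. The median over the 9 genes was -0.93 against -0.02 over all genes. DESeq2 called 2 of the 5.

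The level of CD4 relative to CD8A differed between groups. Because neither gene is private to 1 kind of T cell, this is not a balance of helper and cytotoxic T cells. There were 18 counts of CD4 to 165 of CD8A, 20 to 139 and 23 to 180 in the normal libraries, a ratio of 0.109 to 0.144. Implantation A had a ratio of 0.208 to 0.228, implantation B of 0.593 to 0.893 and ECs+ implantation of 0.118 to 0.153, and defect 3 stood at 1.02. ECs+ implantation lay in the range of normal tissue or just above it, implantation A above both without overlap, and implantation B and defect 3 far above. Ratios of counts carry the lengths of both transcripts and are compared here only between libraries, not read as cells.

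The deposited TPM gave the same order of the highest groups but another value for ECs+ implantation, at 0.173 to 0.342 against 0.121 to 0.163 in normal tissue. Implantation A, at 0.244 to 0.284 in TPM, lay inside that range, so its separation from ECs+ implantation held in counts alone. The difference between the tables lay in CD8A. Its TPM per unscaled CPM was 0.498 to 0.602 in the other deep libraries and 0.222 to 0.322 in ECs+ implantation. From implantation B to ECs+ implantation this quotient dropped to 0.495 of its value for CD8A, against a median of 0.712 over the 13733 genes with at least 1 CPM in every deep library, and only 1.24% of those genes had a lower value. The other 8 T cell genes lay between 0.694 and 0.783. On log2(TPM + 1) CD8A changed by -0.76 from implantation B to ECs+ implantation, a scale that understates changes of low genes, so how far CD8A fell depends on the table used, and the cause was not tested.

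**Figure D3:**
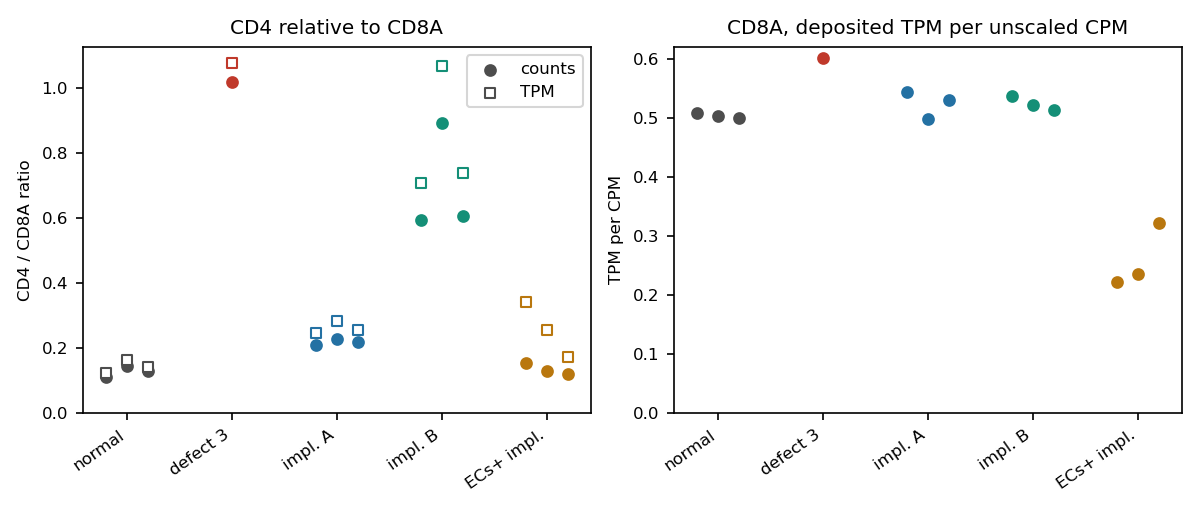
Left, ratio of CD4 to CD8A (y axis) in counts (filled circles) and deposited TPM (open squares) in the 13 deep libraries by group (x axis). Right, deposited TPM of CD8A divided by its unscaled CPM. The count ratio is highest in defect 3 at 1.02 and in implantation B, and the 3 ECs+ implantation libraries have the lowest TPM per CPM.

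The gene lists below were counted in the same fits, and each count is to be read against the share of all genes called in that comparison. That share was 32% higher and 31.9% lower in defect against normal, 20.4% and 21.4% in implantation A against defect, 37.8% and 38.1% in ECs+ implantation against implantation B, and 35.7% and 35.6% in ECs+ implantation against normal. In defect against normal fewer of their genes passed without defect 3: 2 genes of T cell receptor signalling were higher and 3 lower, 1 gene of T cell identity was higher, none of the cytotoxic and NK genes passed, 2 of the common gamma chain pathway were higher and 1 lower, and 3 chemokines and 6 macrophage markers were higher. With defect 3 alone 9 signalling genes were higher and 6 lower, 9 identity genes higher and 2 lower, and 1 cytotoxic and NK gene higher and 2 lower. There 9 genes of the gamma chain pathway were higher and 2 lower, 10 chemokines higher and 1 lower, and 15 macrophage markers higher. These recounts of the lists were chosen after seeing the data.

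Genes that act with the receptor inside the cell were called about as often as genes in general. Of 24 genes of T cell receptor signalling, TRAT1 is not analysed here, 20 were tested in defect against normal, and 7 were higher and 6 lower, both near the shares over all genes, with a median of 0.18. The 3 with the smallest p were PLCG1, a phospholipase present in many cell types, which fell by 2.10 on the log2 scale, PTPRC (CD45), a phosphatase of all leukocytes, which rose by 2.13, and the adaptor LAT, which fell by 1.75 from 32.8 ± 2.1 to 7.97 ± 7.20 CPM (SD, n = 3). The defect mean and SD of LAT include the shallow defect 1 and defect 2, so this SD is not a spread of libraries of like depth. In ECs+ implantation against implantation B 6 of 19 were higher and 7 lower, near the shares of that comparison, with a median of -0.22. There CD247, which encodes the zeta chain of the receptor complex, rose by 1.85 from 12.8 ± 1.0 to 47.5 ± 0.5 CPM (SD, n = 3, adjusted p = 4.4e-28), against the direction of CD3D and CD3E. PLCG1 rose by 0.92 and PTPRC fell by 1.24.

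Of 25 genes of T cell identity and subsets, 19 were tested in defect against normal, and 7 were higher, near the share over all genes, and 2 lower, with a median of 0.22. RUNX3 and TCF7, transcription factors of T cells, rose by 1.97 and 1.55. From defect to implantation A 9 of 19 were lower and 2 higher, with a median of -0.82, and TCF7 was among the lower ones. Without defect 3, 0 of 21 passed in either direction in that comparison. From implantation B to ECs+ implantation 9 of 15 were lower and 3 higher, with a median of -1.27, among them RUNX3 at -2.12 ± 0.23 and TCF7 at -1.45 ± 0.18 (SE). Against normal tissue ECs+ implantation was lower for 14 of 21, among them CD27, a co-stimulatory receptor, at -2.55 ± 0.34 and CD6, a receptor of T cells, at -2.19 ± 0.32.

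GZMA belongs with the killing machinery, which was described by 20 cytotoxic and NK cell genes. In defect against normal 1 of 11 was higher and 3 lower, neither above the share over all genes. In implantation B against implantation A 2 of 12 were higher and 1 lower, both below the shares of 27.2% and 23.6% over all genes. ECs+ implantation against implantation B gave 4 of 9 lower, with the granule protein NKG7 at -1.30 ± 0.14 and the NK receptor KLRK1 at -2.34 ± 0.58 (SE). There 1 was higher, granzyme M (GZMM) at 1.66 ± 0.44 (SE). Against normal tissue 7 of 12 were lower in ECs+ implantation and 1 higher, with cathepsin W (CTSW) lowest at -1.84 ± 0.20.

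IL7R signals with the common gamma chain, and the 18 genes of that pathway were split. In defect against normal 9 of 15 were higher and 2 lower, against 32% and 31.9% of all genes. IL4R, which encodes the interleukin-4 receptor alpha chain, rose by 2.01, the kinase JAK3 by 1.39 and IL2RG, the common gamma chain itself, by 1.59. From implantation B to ECs+ implantation 9 of 16 were lower and 6 higher, against 38.1% and 37.8% of all genes. JAK1, a kinase used in many cell types, fell by 0.69 from 340.0 ± 2.6 to 215.1 ± 5.3 CPM, and SOCS2 and STAT5A, an inhibitor and a transcription factor of the pathway, rose by 0.94 and 0.62.

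Chemokines that draw T cells did not move with the T cell genes in ECs+ implantation. There 7 of 9 tested were higher than in implantation B and 2 lower, against 37.8% and 38.1% of all genes, with a median of 1.0, while 6 of the 8 T cell genes were lower. CCL5 rose by 3.77 ± 0.10 (SE), from 5.35 ± 1.01 to 74.3 ± 3.6 CPM (SD, n = 3), and CXCL10, a chemokine induced by interferon, by 1.90 ± 0.11. CCL21, the chemokine of lymphatic vessels and lymph nodes, fell by 2.94 ± 0.09, from 57.8 ± 2.5 to 7.71 ± 0.89 CPM. In defect against normal 7 of 8 were higher, CCL21 by 6.74 ± 0.21 and CCL2, which attracts monocytes and T cells, by 4.40 ± 0.15, and 1 was lower. The lymphatic endothelial markers moved with CCL21: 5 of 6 were lower in ECs+ implantation than in implantation B, and 5 of 6 were higher in defect than in normal tissue. CCL5 itself is made by activated T and NK cells and by other cells.

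Markers of other leukocytes moved in the same comparisons. All 15 tested macrophage and monocyte markers were higher in defect than in normal tissue, where the list summed to 1391 to 1543 against 786 to 807 CPM. The sum was 669 to 674 CPM in implantation A, 1259 to 1272 in implantation B and 758 to 767 in ECs+ implantation, with at most 1 of the 16 genes at 0 in any library. The macrophage sum was thus highest in defect and implantation B, the groups in which CD4 and IL7R were highest. The 10 plasmacytoid and dendritic cell markers ran otherwise, summing to 623 to 641 CPM in normal tissue and 537 to 553 in ECs+ implantation. Their sum was 278 to 290 CPM in implantation A, 264 to 318 in defect and 206 to 212 in implantation B. Yet 5 of the 7 tested were higher in defect than in normal tissue and 1 lower, against 32% and 31.9% of all genes. B and plasma cell markers summed to 120 to 152 CPM in defect and 177 to 200 in implantation B, against 15.02 to 18.6 in normal tissue, 25.8 to 27.6 in implantation A and 32.5 to 36.7 in ECs+ implantation. In the deep libraries at most 2 of the 11 B and plasma cell genes were at 0, and up to 7 in the shallow ones. Genes of leukocytes in general followed the order of the macrophage and B cell sums only in part. The 12 pan-leukocyte genes summed to 372 to 399 CPM in defect and 386 to 391 in ECs+ implantation. Their sum was 303 to 305 CPM in normal tissue, 272 to 281 in implantation B and 227 to 231 in implantation A. Yet 8 of the 12 genes were lower in ECs+ implantation than in implantation B and 2 higher, against 38.1% and 37.8% of all genes. The tissue's own markers moved too. The endothelial sum averaged 3996 CPM in normal tissue, 2097 in defect, 2113 in implantation A, 1486 in implantation B and 3664 in ECs+ implantation, where 6 of 7 genes were higher than in implantation B. The smooth muscle sum averaged 3876 CPM in normal tissue, 2491 in defect, 5676 in implantation A, 2527 in implantation B and 3915 in ECs+ implantation. The part of these cells in the levels of the T cell genes was not tested.

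Summed over the 9 T cell genes, without TMM scaling, normal tissue stood at 20.5 to 22.6 CPM, defect at 23.98 to 28.9, implantation A at 15.1 to 16.3, implantation B at 17.0 to 20.8 and ECs+ implantation at 11.8 to 12.1. CD8A weighed most in the sums of every group but defect, in counts that carry transcript length. It had 484 pooled counts in normal tissue and 243 in ECs+ implantation, ahead of LCK with 186 and 131. In implantation A and B it had 308 and 283, ahead of CD2 with 163 and 200. In defect CD8A and CD4 had 111 each. The cytotoxic and NK sum was 23.3 to 25.2 CPM in normal tissue, 18.4 to 19.6 in implantation A, 18.2 to 19.3 in implantation B and 12.3 to 14.1 in ECs+ implantation, with up to 4 of 20 genes at 0, and 9.63 to 19.99 in defect, where 18 or 19 genes were at 0 in the shallow libraries. For both lists the ECs+ implantation libraries were the lowest of the deep libraries, without overlap among these, but the shallow defect 1 was lower still for the cytotoxic and NK list. The 18S ribosomal RNA gene RN18S took 1.38% to 1.41% of the counts in ECs+ implantation, 0.49% to 0.57% in normal tissue and 0.14% to 0.23% elsewhere, and its part in these sums was not tested.

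**Figure D4:**
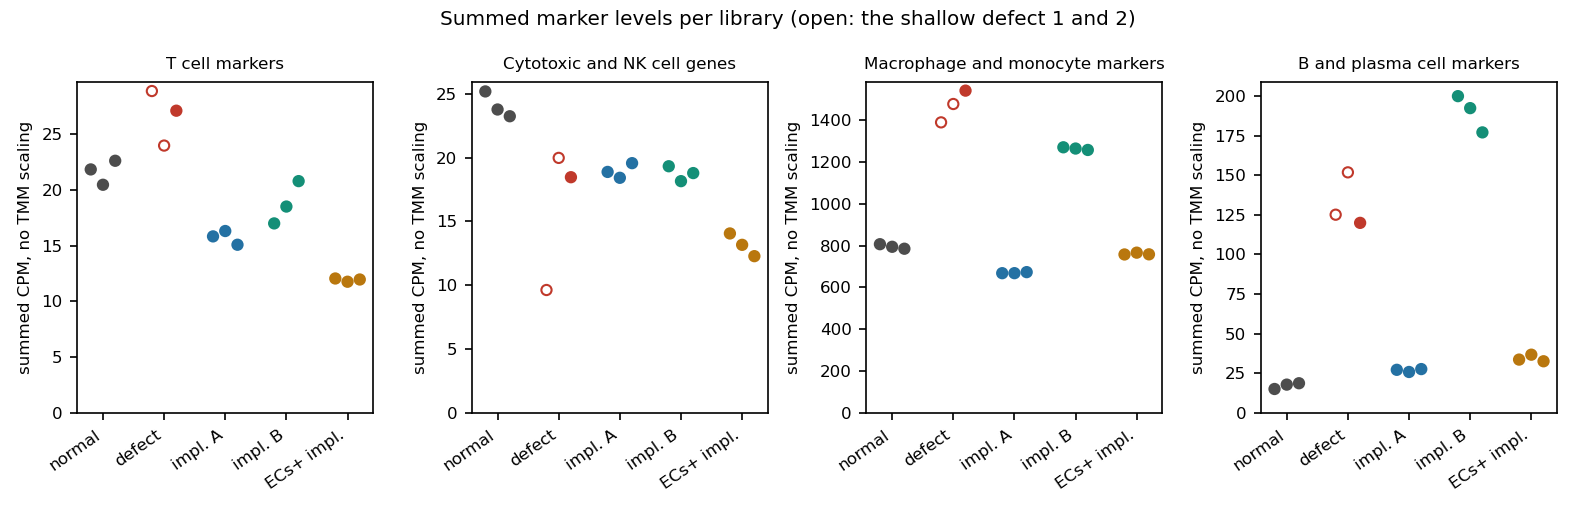
Summed CPM without TMM scaling (y axis) of the T cell, cytotoxic and NK, macrophage and monocyte, and B and plasma cell lists in each library by group (x axis), with the shallow defect 1 and 2 open. Among the deep libraries ECs+ implantation is lowest for the first 2 lists, at 11.8 to 12.1 and 12.3 to 14.1 CPM, the shallow defect 1 lies below it for the second at 9.63, and the macrophage list is highest in defect and implantation B.

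Across the 13 deep libraries the genes whose log2 CPM was most like the mean standardised level of the 9 T cell genes were BCL3 (Pearson r = 0.98), SBNO2, SP6, MFAP3L and GADD45A (r = 0.96), out of 13655 genes ranked. For the mean of the CD3 chains they were CC2D1B (r = 0.94), NUCB1, ELF4, CHD4 and RELB (r = 0.89). For CD4 alone they were LTBP2, AGT, CORO1A, IRF4 and LRP1, all with r of 0.98. These values describe 13 libraries that fall into 5 groups, share sequencing depth and were ranked for likeness, so they carry no test.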

How the data were processed

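PolyA RNA-seq of 15 libraries was analysed from 2 tables. The deposited counts are whole reads per gene, and the deposited TPM values are the authors' length-scaled levels. Per the submitters' processing notes, fastp, HISAT2, HTSeq and DESeq2 were used with Sscrofa11.1, and versions are not given in the sources used here. The members and lists were chosen with earlier results of these data known. Counts were tested with edgeR 4.0.16 in R 4.3.3: filterByExpr with a minimum count of 10, TMM scaling, robust quasi-likelihood fits and Benjamini-Hochberg adjustment over all genes of the fit, two-sided, with calls at an adjusted p under 0.05. The fits held 9 libraries (normal, defect, implantation A), 6 (implantation B, ECs+ implantation) or all 15, and were tested on simulated data. Standard errors and 95% intervals come from the fitted model. All 9 T cell genes in the tables are named, and of every other list up to 3 genes with the smallest p in the comparison described. Some genes that this rule selects are not reported here. For likeness, the 5 genes with the highest Pearson r are named among those with a symbol whose log2 CPM averaged 0 or more. Replicates of a group all differed by more than sampling noise. Samples of the same number did not deviate together, so numbers were not used as pairs. Alternatives used DESeq2 1.42.0, limma 3.58.1 (voom, and limma-trend on log2(TPM + 1) or log2(TPM + 0.1)), other scalings, no filter, a threshold of 0.01, a replicate block and each library left out.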

Additional observations from a re-analysis of the deposited data

How the results depend on the processing

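Depth limits the defect group, where 2 of 3 libraries were shallow, and the CD3 chains, IL7R and GZMA, which had few counts in every library. In ECs+ implantation against implantation B between 4 and 6 genes were lower in every alternative, and no T cell gene was higher in any. Leaving out the defect comparisons, 613 of the 746 values of single genes and settings kept their direction and side of the threshold, 73 lost a call, 10 gained 1 and 50 changed sign, of which none was called. The cause of the changes below was not tested except where named.

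The replicate block gave the same number of T cell genes in each direction in every comparison, and the 21 same-numbered pairs of samples had correlations of deviations between -0.02 and 0.04; under the block LCK in defect against normal turned to 0.028. With library size as the only scaling the median over all genes shifted to -0.41 in defect against normal (3457 genes higher and 8889 lower, against 5715 and 5692), to 0.33 in implantation A against defect (7930 and 1761, against 3642 and 3823), to 0.26 in ECs+ implantation against implantation B (8684 and 4894, against 6501 and 6547), to -0.25 in implantation B against A (2384 and 8511, against 4978 and 4329), to -0.34 in implantation B against normal (4631 and 9425, against 6796 and 6715) and to -0.13 in ECs+ implantation against normal. Size factors of the DESeq2 type shifted it to -0.17 in defect, -0.14 in implantation B and -0.12 in ECs+ implantation against normal, and turned CD3G in implantation B against normal to -0.039. Library size left 3 T cell genes higher and 2 lower, CD8A and LCK, in defect against normal. It turned implantation B against normal to -0.039 for CD3D and -0.24 for CD3G, implantation B against A to -0.076 for CD3E, -0.17 for CD3G and -0.071 for CD8A, and LCK in implantation A against defect to 0.0060.

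DESeq2 called 7422 genes in defect against normal, 3830 in implantation A against defect and 6921 in implantation A against normal, against 11407, 7465 and 11522. Of the T cell genes it called 2 higher in defect, 2 lower in implantation A against defect (CD3D and CD3G had no adjusted p), 0 higher and 1 lower in implantation A against normal, 1 higher in implantation B against A and 2 lower in ECs+ implantation against normal, and CD3G in implantation B against normal turned to -0.037. Limma-voom with quality weights called 5353 and 1799 genes in the comparisons with defect and 2 T cell genes in each, and turned CD8A and LCK in defect against normal to 0.083 and 0.14, CD3D in implantation A against normal to 0.087, CD3G in implantation B against A and against normal to -0.042 and -0.14, and GZMA in implantation B against normal to 0.012.

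Limma-trend on the deposited TPM with the shallow libraries called 0 T cell genes higher in defect, implantation A or implantation B and 0 lower in implantation A or B. On log2(TPM + 1) it called 7453 genes in ECs+ implantation against normal, 3299 in implantation A against normal, 3537 in implantation B against A and 7838 in implantation B against normal. Those were 8116, 3274, 3446 and 8454 with no filter, and 6738, 2954, 3102 and 6850 on log2(TPM + 0.1), against 13056, 11522, 9307 and 13511. ECs+ implantation had 2 T cell genes lower than normal, or 1 on log2(TPM + 0.1), and GZMA was 1 lower in defect with no filter. With and without the filter the log2(TPM + 1) values in defect against normal were -0.047 for CD2, -0.76 for CD3D, -1.23 for CD3E, -0.65 for CD3G and 0.21 for LCK, and in implantation A against defect 0.33 for CD2, 0.71 for CD3D, 1.06 for CD3E and 0.72 for CD3G. On log2(TPM + 0.1) they were -0.99, -2.53, -3.20, -2.36 and 0.25, and 1.32, 2.46, 2.99 and 2.45. CD3E in implantation B against A turned to -0.098 (-0.16 on log2(TPM + 0.1)), CD8A to -0.064 (-0.087) and CD3G to -0.082 (-0.18), CD3G in implantation B against normal to -0.020 (-0.087) and in implantation A against normal to 0.063 (0.092). With defect 3 as the only defect library, chosen after seeing the data, log2(TPM + 1) gave 2 genes higher in implantation A against normal and 1 lower in defect, the same 5 turned values, and LCK in implantation A against defect at 0.078.

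With counts and defect 3 alone, 1 gene, GZMA, was lower in defect, 0 were higher in implantation A against normal, and CD3G there turned to 0.0039. With no filter GZMA was the 1 lower gene in defect and CD3G in implantation A against normal stood at 0.016, and with only the libraries of both groups at 0.0067, where 0 genes were higher. At a threshold of 0.01, 0 genes were higher in implantation A against normal and 3 lower in ECs+ implantation against normal.

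Leaving out each library in turn, 3521 to 11949 genes were called in defect against normal and 1455 to 7556 in implantation A against defect, the lowest without defect 3. T cell genes numbered 0 to 6 higher and 0 to 1 lower in defect against normal, 0 to 7 lower in implantation A against defect and 0 to 1 higher in implantation A against normal. In defect against normal the log2 values ran from -6.41 to 2.02 for CD3D, -8.05 to 1.19 for CD3E, -6.58 to 1.23 for CD3G, -0.31 to 0.041 for CD8A and -0.43 to 0.42 for LCK, and in implantation A against defect from -1.99 to 6.13, -1.51 to 7.72 and -1.33 to 6.57 for the CD3 chains. The extremes without defect 3 come from 0 counts and depend on the prior count. CD3D ran from -0.67 to 0.40 in implantation A and -0.16 to 1.0 in implantation B against normal, CD3E from -0.16 to 0.50 in implantation B against A and -0.49 to 0.17 in implantation B against normal. CD3G ran from -0.17 to 0.11 in implantation A against normal, -0.15 to 0.43 in implantation B against A and -0.15 to 0.43 in implantation B against normal, and LCK from -0.38 to 0.041 in implantation B against A.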
